A study of Chlorocebus sabaeus with 3 samples.

Results

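The insulin-like growth factor (IGF) system was read in 3 tissues of the surface of the vervet monkey eye, namely limbus, cornea, and conjunctiva. It was taken as 9 genes, namely the ligands IGF1 and IGF2, the receptor IGF1R, and the binding proteins IGFBP2, IGFBP3, IGFBP4, IGFBP5, IGFBP6, and IGFBP7. A probe set, the group of short probes that reports a transcript on the array, belonged to a gene when the array annotation gave it that gene's symbol and no other. By this rule, 24 of the 54675 probe sets were read, and they covered 8 of the 9 genes. IGF2 has 0 probe sets of its own, because the 3 that carry its symbol also carry that of the INS-IGF2 readthrough transcript, and these were left out. Total RNA of each tissue was amplified and the product was hybridized to a human Affymetrix U133 Plus array, so that each tissue has 1 array of the 3. The study took the tissues from the same eye, and the labels name neither an age nor a treatment. The limbus was dissected as a rim of epithelium with the outer stroma beneath it, the cornea as the central epithelium with its outer stroma, and the conjunctiva together with the underlying Tenon tissue. A value therefore comes from a mixture of epithelium, stromal cells, vessels, and other cells, and in such bulk RNA fewer cells of a type and less RNA per cell cannot be told apart.

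IGF1 and IGF2 are small secreted peptides related to insulin. Both act on cells through IGF1R, a receptor tyrosine kinase whose signal passes through the IRS adaptors to the PI3K and AKT kinases and to the MAP kinases. In tissue fluid most of the ligand is held by the IGF binding proteins, which carry it, shield it from the receptor, or keep it on the matrix until a protease cuts them. In the eye, corneal epithelium carries IGF1R, and the stromal cells beneath an epithelium are a usual local source of the ligand.

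Levels are deposited intensities on a linear scale after RMA normalization, a procedure that removes background, gives arrays the same distribution, and merges the probes of each probe set into 1 value. The median of all probe sets was 49.0 in limbus, 48.8 in cornea, and 50.7 in conjunctiva. The labels of the cornea and the conjunctiva each matched a marker of that tissue, and the label of the limbus was not checked in this way. KRT12, the keratin of the corneal epithelium, was at 2633 in limbus, 8068 in cornea, and 54.3 in conjunctiva, and the goblet cell mucin MUC5AC was at 127, 102, and 1618. Since each tissue has 1 array, there is no replicate error and no p-value, and the other probe sets of a gene, which share its RNA and its array, were the only check of a reading. Differences under 2-fold are given as values without an order of the tissues. Levels of different probe sets are not compared with each other, since human probes bind vervet transcripts with unknown strength. A value of at least 100 in any tissue was reached by 15 of the 24 probe sets and missed by 9.

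**Figure D1:**
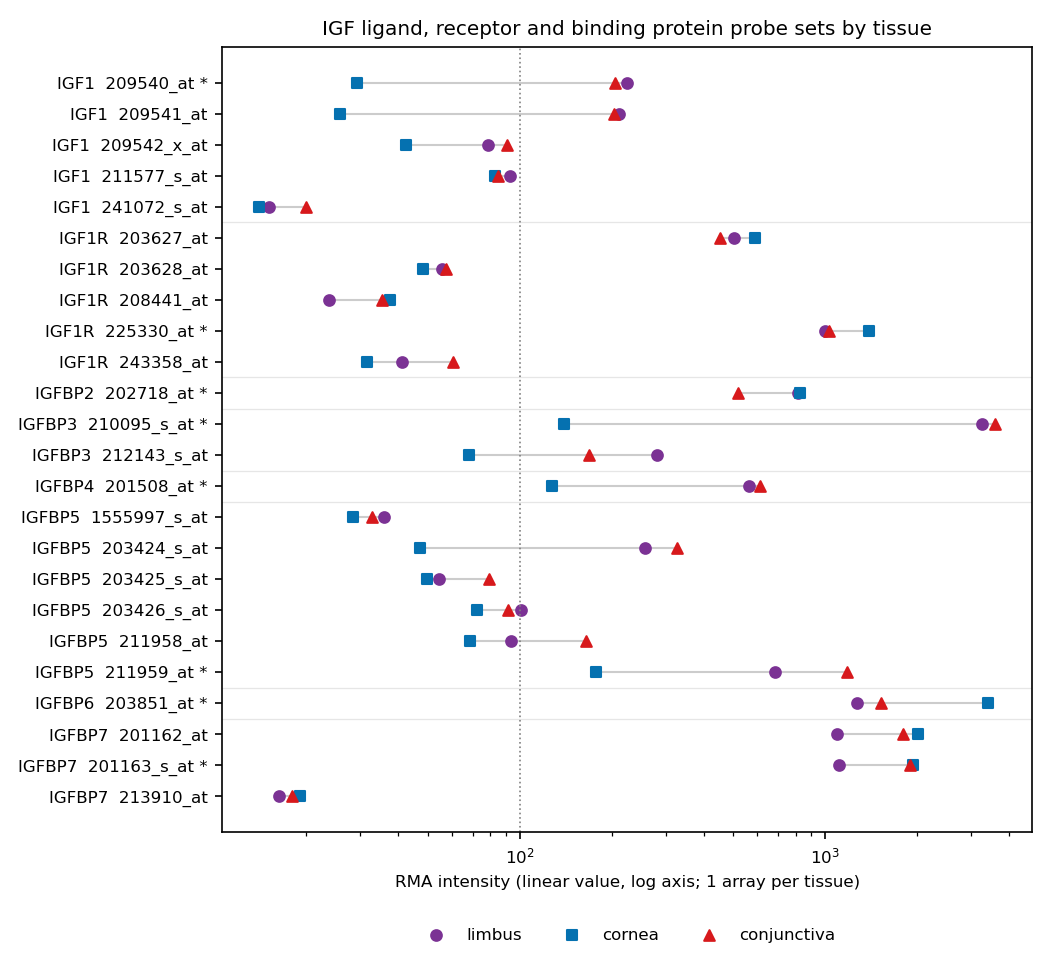
RMA intensity (linear value on a log axis) of each of the 24 probe sets by tissue (circles for limbus, squares for cornea, triangles for conjunctiva), with 1 array per tissue. An asterisk marks the brightest probe set of a gene, that of highest mean log2 value, and the dotted line is at 100. The cornea lies far to the left for IGF1, IGFBP3, IGFBP4, and IGFBP5 on their brightest probe sets and to the right for IGFBP6.

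The cornea stood apart from the other tissues. Probe sets of IGF1, IGFBP3, IGFBP4, and IGFBP5 were low in the cornea, whereas the IGFBP6 probe set was high there. By the study's rule, a level at least 2-fold that of each other tissue, 0 of the 24 probe sets were counted for the limbus, 1 for the cornea (IGFBP6), and 0 for the conjunctiva, beside 0.355%, 1.32%, and 1.10% of all probe sets. Between the limbus and the cornea, 7 reached 2-fold with the limbus higher and 1 with the cornea higher. These are 29.2% and 4.17% of the 24, and the shares over all probe sets were 2.68% and 1.95%. Between the cornea and the conjunctiva, 1 was at least 2-fold higher in the cornea and 9 (37.5%) were at least 2-fold lower there, beside 3.89% and 3.79% of all probe sets. Between the limbus and the conjunctiva, 0 of the 24 were 2-fold apart in either direction. The shares of all probe sets were 1.90% higher in the limbus and 1.67% higher in the conjunctiva, so that 0 among 24 is near the background.

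The 7 probe sets for which the limbus exceeded the cornea were all among the 9 that were lower in the cornea than in the conjunctiva. Both comparisons use the same cornea array. A count of probe sets at least 2-fold below both other tissues in the cornea, added after the data were seen, was 7 of 24, beside 1.73% of all probe sets. The shares were larger among bright probe sets. Of the probe sets with at least 100 in the limbus, 7 of 14 were at least 2-fold higher there than in the cornea, compared with 6.00% of all such probe sets. Of those with at least 100 in the conjunctiva, 8 of 14 were at least 2-fold lower in the cornea, compared with 8.67%. A level set on the tissue where a probe set is high favours a difference, so these counts are only a description. With each gene read from its brightest probe set, the median log2 difference over the 8 genes was 0.96 for the limbus over the cornea, -0.13 for the limbus over the conjunctiva, and -1.12 for the cornea over the conjunctiva. Over all 19775 genes read in this way these medians were -0.05, -0.04, and 0.01.

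**Figure D2:**
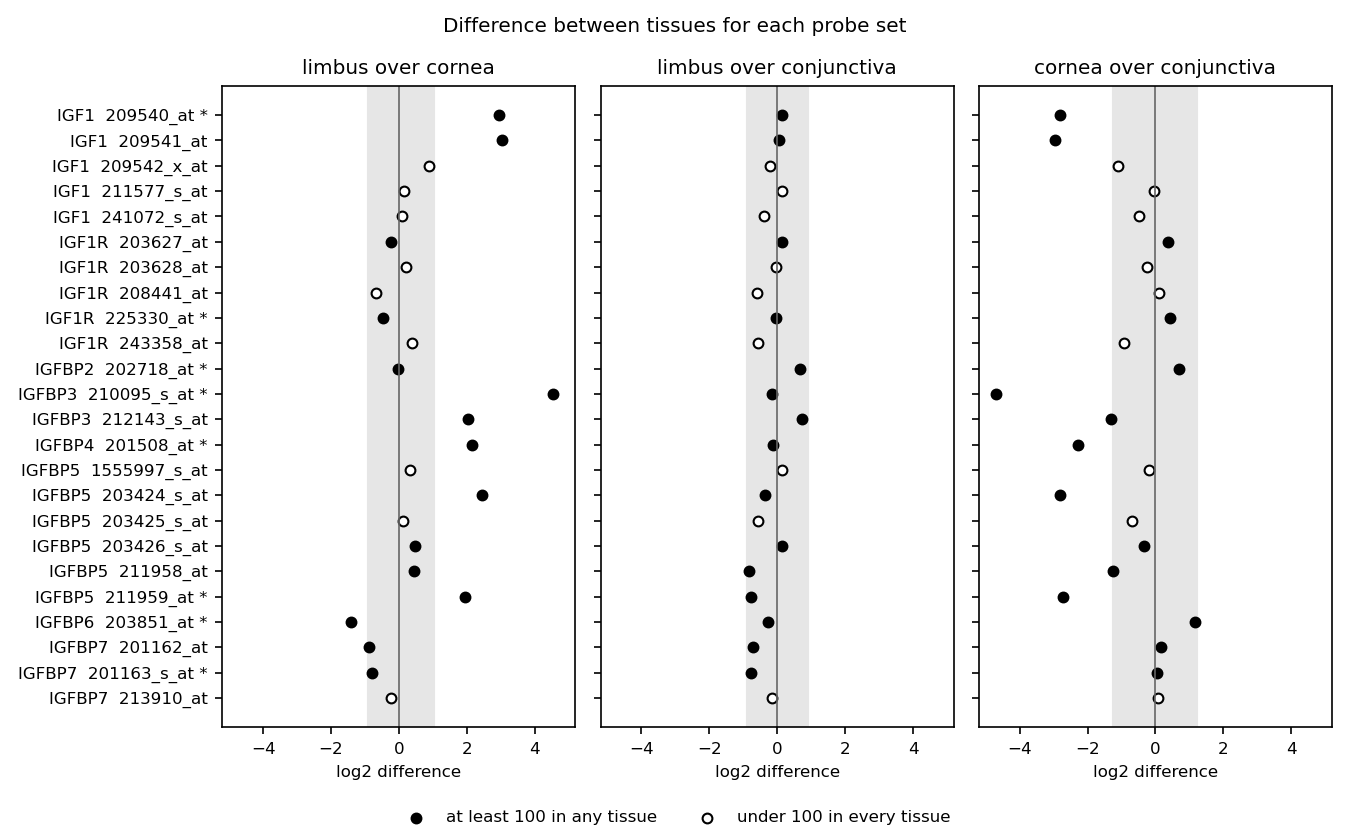
Log2 difference of each probe set for the limbus over the cornea, the limbus over the conjunctiva, and the cornea over the conjunctiva, from 1 array per tissue. Filled points reach 100 in any tissue, open points do not, and the grey band holds the middle 95% of all 54675 probe sets. IGF1, IGFBP3, IGFBP4, and IGFBP5 have probe sets outside the band in both comparisons with the cornea and none outside it between the limbus and the conjunctiva.

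IGF1, the ligand that could be read, was low in the cornea on both probe sets that reached 100. Probe set 209540_at was at 225 in limbus, 29.2 in cornea, and 205 in conjunctiva. Probe set 209541_at was at 211, 25.8, and 203 in the same order. The limbus was thus 7.72-fold and 8.18-fold above the cornea, and 1.10-fold and 1.04-fold above the conjunctiva. The cornea values are under the median of that array. With 32 added to every value, the log2 difference of 209540_at between the limbus and the cornea was 2.07 in place of 2.95, still over 2-fold. The other IGF1 probe sets were dim. Probe set 209542_x_at was at 78.4, 42.3, and 91.0, probe set 211577_s_at at 92.5, 82.9, and 84.5, and probe set 241072_s_at at 15.1, 14.0, and 19.9. The cornea value was the smallest on all 5, yet 211577_s_at was within 1.12-fold over the 3 tissues and 241072_s_at within 1.42-fold. No order of the tissues was read on these, and the share of all probe sets lowest in the cornea was not computed. The median log2 difference of the limbus over the cornea across the 5 was 0.89.

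The receptor IGF1R did not share that pattern. Its brightest probe set, 225330_at, was at 1002 in limbus, 1396 in cornea, and 1030 in conjunctiva, and 203627_at was at 503, 589, and 452. The highest value was in the cornea on both, by at most 1.39-fold over another tissue, so that no order of the tissues was read. The remaining IGF1R probe sets were all at 60.3 or lower and at most 1.91-fold apart. With each array divided by its hybridization controls, 225330_at was highest in the limbus, with a log2 difference over the cornea of 0.30 in place of -0.48.

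IGFBP3 had the widest difference of the 8 genes. It is the main carrier of IGF in blood and also a growth-inhibiting protein of its own. Probe set 210095_s_at was at 3272 in limbus, 140 in cornea, and 3603 in conjunctiva. The limbus was 23.4-fold above the cornea, which placed the probe set in position 8 of 54675 for that difference, and the cornea was at 0.0388 of the conjunctiva, in position 35 from the low end. Its other probe set, 212143_s_at, was at 281, 68.0, and 168, a 4.14-fold difference between the limbus and the cornea and 0.404 for the cornea over the conjunctiva. The cornea was lowest on both, and the probe sets differed in how far. The limbus and the conjunctiva were within 2-fold of each other on both.

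IGFBP4, a binding protein that mostly restrains IGF action until the protease PAPP-A cuts it, has a single probe set. It was at 563 in limbus, 127 in cornea, and 611 in conjunctiva. The limbus exceeded the cornea 4.45-fold and was at 0.921 of the conjunctiva, and the cornea was at 0.207 of the conjunctiva. No second probe set was there to check this reading.

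IGFBP5 binds to extracellular matrix and can either restrain or promote the action of IGF. Its brightest probe set, 211959_at, was at 687 in limbus, 178 in cornea, and 1177 in conjunctiva. Probe set 203424_s_at was at 257, 47.2, and 328. The limbus was 3.87-fold and 5.45-fold above the cornea, and the cornea was at 0.151 and 0.144 of the conjunctiva. The conjunctiva over limbus ratios were 1.71 and 1.27, and that of 211959_at became 1.17 with the hybridization controls, so that no order of these tissues was read. The others reported a narrower range. Probe set 211958_at was at 93.3, 68.8, and 165, probe set 203426_s_at at 101, 72.6, and 91.7, probe set 203425_s_at at 54.3, 49.5, and 79.4, and probe set 1555997_s_at at 35.9, 28.5, and 32.7. The cornea value was the smallest on all 6. On 203426_s_at, 203425_s_at, and 1555997_s_at the tissues were under 2-fold apart, so that no order was read. The share of all probe sets lowest in the cornea was not computed. The median log2 difference of the limbus over the cornea was 0.46 across the 6, against 1.95 for the brightest.

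IGFBP6 ran the other way. It is the binding protein that prefers IGF2 to IGF1, and its single probe set, 203851_at, was at 1268 in limbus, 3401 in cornea, and 1528 in conjunctiva. The cornea exceeded the limbus 2.68-fold and the conjunctiva 2.23-fold. Among all probe sets, 0.602% had a limbus over cornea difference as low, and 2.79% had a cornea over conjunctiva difference as high. The 2-fold count depended on how the arrays were scaled. With each array divided by its hybridization controls the values were 1767, 2762, and 1454, and IGFBP6 was no longer 2-fold above either tissue.

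IGFBP7 and IGFBP2 were less than 2-fold apart as deposited. IGFBP7 is a relative of the binding proteins with low affinity for IGF that is found in the basement membrane of vessels. Probe set 201163_s_at was at 1112 in limbus, 1939 in cornea, and 1898 in conjunctiva, and 201162_at was at 1097, 2012, and 1804. The limbus was at 0.574 and 0.545 of the cornea and at 0.586 and 0.608 of the conjunctiva. Division by the hybridization controls took away the difference from the cornea, with a log2 value of -0.02 for 201163_s_at in place of -0.80. Probe set 213910_at was dim and was at 16.3, 19, and 18. IGFBP2, which also binds integrins, has a single probe set, at 816 in limbus, 829 in cornea, and 517 in conjunctiva. The limbus was 1.58-fold and the cornea 1.60-fold above the conjunctiva. With the hybridization controls its values were 1137, 673, and 492, and the limbus was 2.31-fold over the conjunctiva.

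**Figure D3:**
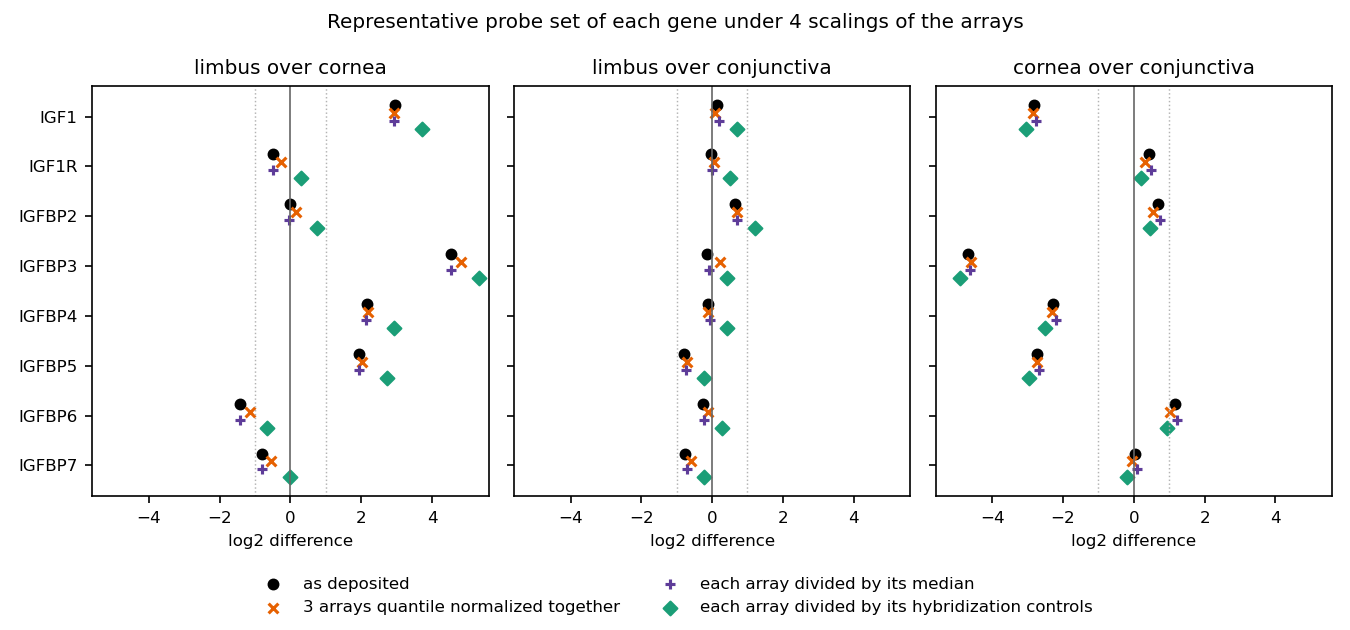
Log2 difference between tissues of the brightest probe set of each gene, as deposited and under 3 other scalings of the arrays, with dotted lines at 2-fold. The differences of IGF1, IGFBP3, IGFBP4, and IGFBP5 from the cornea stay beyond 2-fold under all 4, while with the hybridization controls IGFBP6 moves inside the lines and the limbus over conjunctiva difference of IGFBP2 moves outside them.

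Some of the genes are neighbours. In the RefSeq annotation of the vervet assembly mChlSab1.0.hap1, which holds all 9 genes, IGFBP2 and IGFBP5 are next to each other, and IGFBP3 is next to IGFBP1. The limbus over cornea log2 difference was 1.95 for IGFBP5 and -0.02 for IGFBP2. IGFBP1, a binding protein made chiefly by the liver, was at 14.7 in limbus, 17.7 in cornea, and 18.8 in conjunctiva, under the lower quartile of each array and too dim for a pattern to be read.

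Markers of several cell types shared a low cornea value with IGF1, IGFBP3, IGFBP4, and IGFBP5. Unlike those genes, some markers were at least 2-fold above both other tissues in limbus or in conjunctiva. For conjunctiva these were 1 of 7 vascular endothelial, 3 of 6 fibroblast, and 3 of 7 smooth muscle and pericyte genes. The same held for 3 of 6 leukocyte and 3 of 5 goblet cell and mucosal genes. For limbus they were 2 of 4 melanocyte genes. Of all genes, 1.68% were counted for conjunctiva and 0.475% for limbus. The markers were chosen as genes of a cell type, so that these counts are only a description. All 7 vascular endothelial genes (PECAM1, VWF, CDH5, TEK, CLDN5, ESAM, and EMCN) had their lowest value in the cornea, and their levels summed to 1576 in limbus, 509 in cornea, and 2313 in conjunctiva. The endothelial adhesion molecule PECAM1 alone was at 462, 45.9, and 675. Other genes of this list were under 2-fold apart, with TEK at 104, 63.7, and 87.7, CLDN5 at 112, 91.9, and 129, and ESAM at 115, 85.2, and 136. All 6 fibroblast genes were lowest in the cornea as well, with sums of 6923, 4705, and 15340, and the fibrillar collagen COL3A1 was at 519, 46.3, and 2105. PDGFRA, at 720, 553, and 1029, and THY1, at 166, 140, and 242, were under 2-fold apart. Of 7 smooth muscle and pericyte genes, 4 were lowest in the cornea, with sums of 1508, 693, and 3749, and the genes of this list differed among themselves. The pericyte gene RGS5 was at 470, 30.9, and 446 and the smooth muscle actin ACTA2 at 431, 76.4, and 1847, whereas DES was at 108, 111, and 199, CNN1 at 65.2, 71.3, and 234, and MCAM at 130, 168, and 162. Of 6 leukocyte genes measured, 4 were lowest in the cornea, with sums of 3716, 4258, and 9554 that rest mostly on lysozyme. All 4 melanocyte genes measured were lowest in the cornea, with sums of 1476, 351, and 651, and 4 of 5 goblet cell and mucosal genes were lowest there, with sums of 4766, 1160, and 8711. The melanocyte gene TYR was at 188, 94.4, and 96.9. Markers of other cell types did not share the low cornea value. Of 2 Schwann cell genes measured, 1 was lowest in the cornea, and of 4 skeletal muscle genes 1 was lowest there and 3 in the limbus. The share of all genes lowest in the cornea was not computed, so these counts are only a description. In each sum the brightest probe sets weigh most, so the sums are a description as well. The 3 corneal epithelial genes summed to 5755, 17550, and 1156 and the 3 keratocyte genes to 5249, 9783, and 6479, both highest in the cornea as IGFBP6 was. The keratocyte sums rest mostly on DCN, at 5084, 9335, and 6415, while KERA was at 85.3, 312, and 18.5 and LUM at 80.4, 137, and 46.2. The likeness to IGFBP6 is in the highest tissue only for most of these genes. The 3 corneal epithelial genes and KERA were at least 2-fold lower in conjunctiva than in limbus. LUM, DCN, and IGFBP6, which was at 1268 in limbus and 1528 in conjunctiva, were under 2-fold apart between these tissues. The part of these cell types in the IGF values was not tested. The GAPDH controls, which read the 3′ and the 5′ end of that mRNA, differed as well. The GAPDH 3′ value over the 5′ value was 3.12 in limbus, 4.58 in cornea, and 3.83 in conjunctiva. The same ratio for ACTB was 11.8, 11.2, and 10.3, without the highest value in the cornea. The part of RNA quality in the IGF values was not tested.

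Beyond these genes, 47 genes that act with the IGF system were listed, and 42 of them were read from their brightest probe set. Of the 42, 0 were counted for the limbus by the 2-fold rule over both other tissues, 2 for the cornea, and 1 for the conjunctiva, beside 0.475%, 1.89%, and 1.68% of all 19775 genes, and such small counts are near the background. Their median log2 difference was 0.20 for the limbus over the cornea, 0.01 for the limbus over the conjunctiva, and -0.04 for the cornea over the conjunctiva. The receptors differed among themselves. IGF2R, which takes up and degrades IGF2 and carries no kinase, was at 1273 in limbus, 2562 in cornea, and 1261 in conjunctiva on 201393_s_at, 2.01-fold and 2.03-fold higher in the cornea. The count of IGF2R depended on the processing. With 32 added to every value the cornea was 1.99-fold over the limbus, after quantile normalization 1.67-fold, and with the hybridization controls 1.17-fold. A further IGF2R probe set was at 88.0, 164, and 68.7, and 1569052_at was at 17.1 or lower. The insulin receptor INSR gave no common order, since 213792_s_at was at 199, 299, and 404 and 226216_at at 253, 147, and 244. INSRR, the insulin receptor-related receptor, was at 42.7, 34.5, and 35.6.

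Among 8 proteases of the binding proteins and their inhibitors, HTRA1 was counted for the cornea and STC1 for the conjunctiva, where the shares of all genes were 1.89% and 1.68%. HTRA1 is a secreted serine protease that can cut IGFBP5. It was at 977 in limbus, 3306 in cornea, and 1111 in conjunctiva, 3.39-fold and 2.98-fold higher in the cornea. With the hybridization controls it was 1.97-fold over the limbus and no longer counted. STC1, a stanniocalcin that inhibits PAPP-A, was at 121 in limbus, 52.6 in cornea, and 254 in conjunctiva on 204595_s_at and 72.8, 38.6, and 186 on 204597_x_at. On the first the conjunctiva was 2.11-fold over the limbus, but 1.87-fold with 32 added to every value and 1.44-fold with the hybridization controls. PAPPA, which encodes PAPP-A, was at 108, 126, and 123 on the brightest of its 11 probe sets, which was not counted. Another, 1559400_s_at, was counted for the cornea at 58.8, 143, and 62.6. A count on any of 11 probe sets is more easily reached than on 1.

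Of 17 adaptors and signal kinases, 0 were counted for any tissue, which is near the background shares of 0.475% to 1.89%. The highest value was in limbus for 11, in cornea for 4, and in conjunctiva for 2. Each was less than 2-fold over at least 1 other tissue, so that no order of the tissues was read. In 3 of them, named after their values were seen, a pair of tissues was at least 2-fold apart. For each pair and direction, 2.31% to 5.68% of all genes were. The adaptor GRB10, which binds the receptor and restrains its signal, was at 660 in limbus, 295 in cornea, and 1182 in conjunctiva. PIK3R1, a regulatory subunit of PI3K, was at 1745, 817, and 1255, and the catalytic subunit PIK3CB at 586, 751, and 365. The imprinted zinc finger gene PLAGL1 was counted for the conjunctiva on 207002_s_at, with 63.2 in limbus, 16.9 in cornea, and 144 in conjunctiva. Its brightest probe set was at 157, 18.8, and 299, with the conjunctiva 1.9-fold over the limbus, and was not counted as deposited. Neither the 4 further carriers, which include IGFBP1 and the acid-labile subunit IGFALS, nor the 6 CCN family genes had a gene counted, which is near the same background. CCN2, the connective tissue growth factor, is named after its values were seen. It was at 120 in limbus, 19.9 in cornea, and 122 in conjunctiva, and the limbus exceeded the cornea 6.05-fold.

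**Figure D4:**
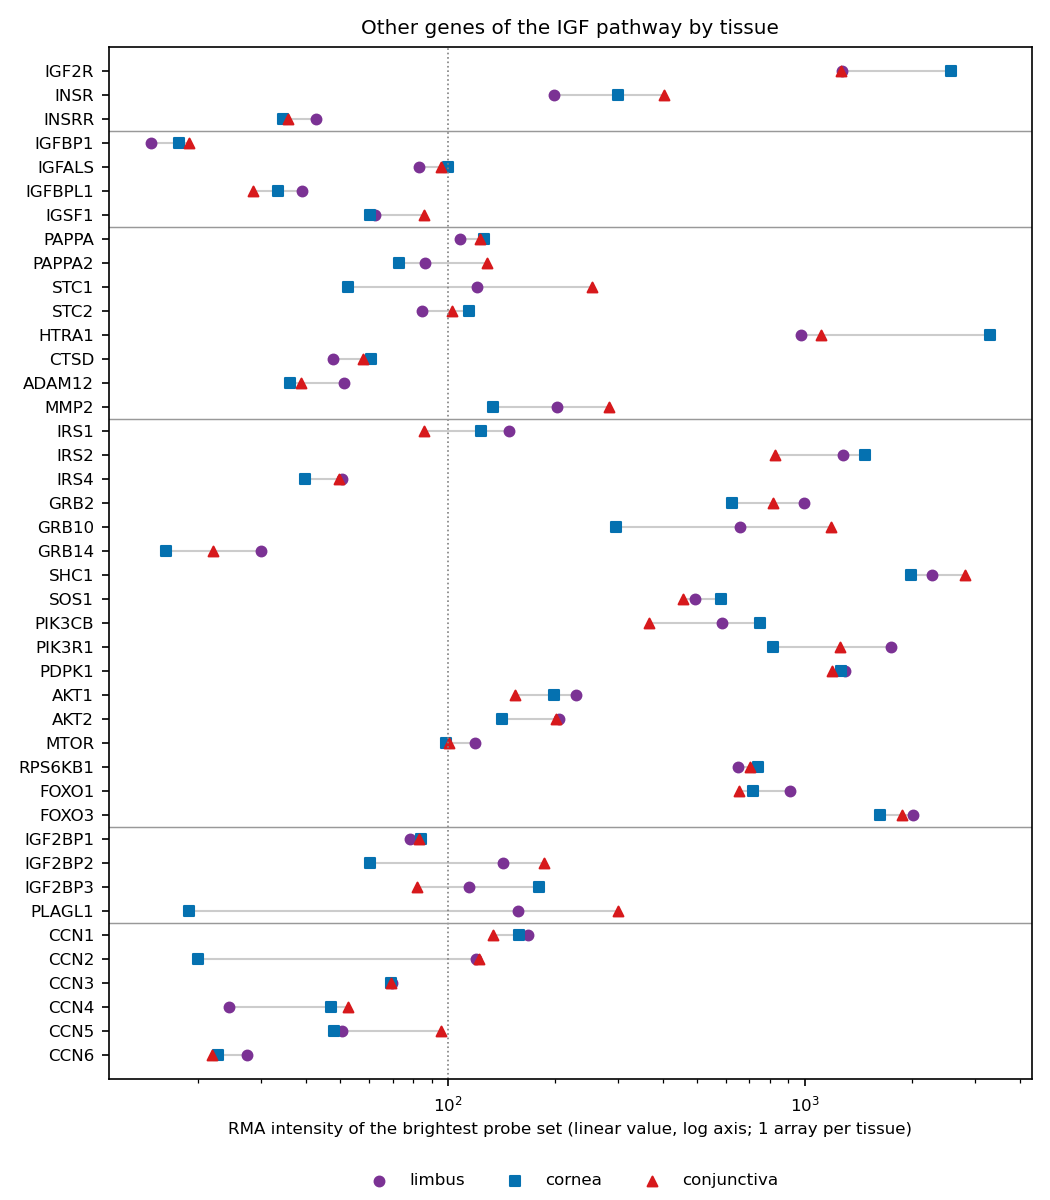
RMA intensity (linear value on a log axis) of the brightest probe set of 42 other genes of the IGF pathway by tissue (circles for limbus, squares for cornea, triangles for conjunctiva), with 1 array per tissue. Lines part receptors, carriers, proteases and their inhibitors, adaptors and kinases, mRNA binding proteins with PLAGL1, and CCN genes, from top to bottom. IGF2R and HTRA1 lie highest in the cornea, and PLAGL1 and CCN2 lie lowest there.

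For each gene whose brightest probe set differed at least 2-fold between any tissues, the 3 genes nearest in pattern were taken among the 16796 probe sets with at least 100 in any tissue that have a single symbol, of a gene outside the 9. Nearness was the Euclidean distance of log2 values centred over the 3 tissues. With 3 points per gene this is a weak measure of likeness. Nearest to IGF1 was CXCL10, a chemokine, with 331 in limbus, 44.3 in cornea, and 292 in conjunctiva (distance 0.064), followed by IFI44 and PLXNC1. Nearest to IGFBP3 was ENPP2, the enzyme autotaxin, with 677, 31.6, and 922 (distance 0.218). PPARGC1A came in place 2 with 333, 15.3, and 290 (distance 0.326). KRT15, a keratin of basal epithelial cells, came in place 3 with 3159, 182, and 3520 (distance 0.344). GPX3 was nearest to IGFBP4 (distance 0.0557), followed by CDK14 and NRN1. The transcription factor ETS1 was nearest to IGFBP5 (distance 0.0476), followed by EVA1C and EBF1. INHBC was nearest to IGFBP6 (distance 0.0131), followed by TNS3 and LNX1.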

How the data were processed

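Total RNA from the limbus, the cornea, and the conjunctiva was amplified in more than 1 round, and the product was hybridized to human U133 Plus arrays, 1 per tissue. The authors normalized each array by RMA (justRMA, version not given in the sources used here) against a constant set of reference arrays and deposited intensity values on a linear scale. These were used unchanged, without replicates or tests. Scale differences between the arrays can therefore remain. The number of arrays limits the precision. The table held 0 columns of other samples.

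Probe sets were named from the platform annotation, in which 41097 have 1 symbol, 1801 several, and 11777 none. No gene was named from several. Ratios of at least 2 between linear values were counted without a level filter. The probe set of highest mean log2 value, the brightest, stands for its gene. The genes, lists, and rules were chosen with earlier results of these data known. Named are all probe sets of the 9 genes, the receptors, listed genes counted at a value of at least 100, and 3 genes of like pattern. Scripts (Python 3.11.15, numpy 2.4.6, pandas 2.3.3, matplotlib 3.10.9) were tested on simulated arrays. A total of 29 alternatives was planned and 2 were added after seeing the data. The repeats of the count at least 2-fold below both other tissues in the cornea were not planned. A few listed pathway genes are not reported here.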

Additional observations from a re-analysis of the deposited data

How the results depend on the processing

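Without replicate arrays a moved value is one that changed by more than 1.5-fold, and precision cannot be read from signal alone. Among 144 repeats of the log2 differences of the 8 genes, 124 stayed within 1.5-fold, 20 moved, and 0 turned a 2-fold difference round. Quantile normalization of the 3 arrays and division by the array median moved none. Division by 18 hybridization controls, whose mean was 1836 (limbus), 3149 (cornea), and 2687 (conjunctiva), shifts the median of all probe sets by 0.78 (limbus over cornea), 0.55 (limbus over conjunctiva), and -0.23 (cornea over conjunctiva) on the log2 scale. With it, 1 probe set was counted for the limbus and 0 for the cornea, 12 had the limbus 2-fold over the cornea and 0 the cornea over the limbus, 2 had the limbus over the conjunctiva, 0 the cornea over the conjunctiva, and 3 pathway genes (IRS1, PIK3R1, and FOXO1) were counted for the limbus, with 0 for either other tissue. At a threshold of 1.5-fold, 1 probe set was counted for the limbus and 2 for the conjunctiva, 4 had the cornea over the limbus, 2 the limbus over the conjunctiva, 4 the conjunctiva over the limbus, and 2 the cornea over the conjunctiva, with 4 pathway genes for the conjunctiva. At 3-fold, 0 were counted for the cornea, 0 were higher in the cornea than in either tissue, and 0 pathway genes were counted for the cornea and 0 for the conjunctiva. With 32 added to every value, 1 pathway gene (HTRA1) was counted for the cornea and 0 for the conjunctiva, and after quantile normalization 1 (HTRA1) and 2 (STC1 and PLAGL1). Counting genes by their brightest probe set gave 4 with the limbus over the cornea, 4 lower in the cornea than in the conjunctiva, and 4 lower in the cornea than in both, of 8, beside 4.06%, 5.68%, and 2.93% of all genes. These differences follow from the scaling, threshold, or unit of the count. No paired analysis was possible because each tissue has 1 array.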
